A study of Homo sapiens with 9 samples.

Results

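Gene expression was compared between MDA-MB-231 cells carrying ASAH1 shRNA #1 and the same cells carrying a nonspecific (NS) shRNA, over every gene whose mean normalized count reached 10 in the 6 libraries of the comparison. This held 14341 of the 26485 genes in the table, while 5801 genes were listed at 0 in each library and 6343 had a lower mean. MDA-MB-231 is a widely used human breast cancer line, triple-negative and mesenchymal in form, from which the study sequenced 9 libraries. The NS shRNA cells gave 3 biological replicates, as did the ASAH1 shRNA #1 cells and the group with a second hairpin against the gene (ASAH1 shRNA #2), and all 3 groups expressed their hairpin stably and grew in DMEM with serum. The sources used here give neither the hairpin sequences and vector nor whether each line is 1 clone or a pool. The genes on either side of the limit were KCNMA1 at a mean of 9.999 and LINC01590 at 10.007.

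ASAH1 encodes acid ceramidase, the lysosomal enzyme that splits ceramide into sphingosine and a fatty acid. Sphingosine can then be phosphorylated to sphingosine-1-phosphate, a signaling lipid that acts through cell surface receptors. Cells answer lipid, amino acid and protein folding stress through kinases that phosphorylate the translation factor eIF2α, which raises translation of the transcription factor ATF4 and, with it, genes for amino acid synthesis and uptake.

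The reads on genes ran from 30989598 to 34867548 per library with NS shRNA and from 23806003 to 39791698 with shRNA #1, and the median gene varied between replicates by 6.98% (SD over mean) with NS shRNA and 6.06% with shRNA #1. The line's defining markers were present in each of the 6 libraries, with VIM at 54820.5 or more, CD44 at 25241 or more, AXL at 32491 or more and EGFR at 2791 or more normalized counts. SPARC, which is also in the marker list, was low at 39.4 to 89.4. The hormone receptors ESR1 and PGR and their factor FOXA1 were at or below 2.88 and KRT14 at or below 8.31. From the same list, ERBB2 was at 1955 to 3388, GATA3 at 499 to 750 and KRT5 at 60.2 to 160. The fibroblast gene DCN was at 0 in each library, but COL1A1 was at 632 to 859 and PDGFRB at 394 to 984. COL1A2 was at 138 to 441 and LUM at 98.0 to 144. Of 9 blood and endothelial markers only CD14, a monocyte coreceptor, exceeded the 100.5 of PECAM1 in any library.

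One library stood apart. In replicate 1 of shRNA #1, 10 RNAs that lack a poly(A) tail, among them RN7SK, RMRP and RPPH1, had 3434 reads per 1000000 reads on genes, against 227 to 510.3 with NS shRNA and 248 and 178 in the remaining shRNA #1 libraries. These 10 were chosen after their values had been seen. The histone genes, most of whose transcripts also end without a poly(A) tail, moved with them and are described with their own list. The sources disagree on the library preparation, since the design text names ribosomal RNA depletion and the extraction protocol names oligo-dT beads.

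**Figure D1:**
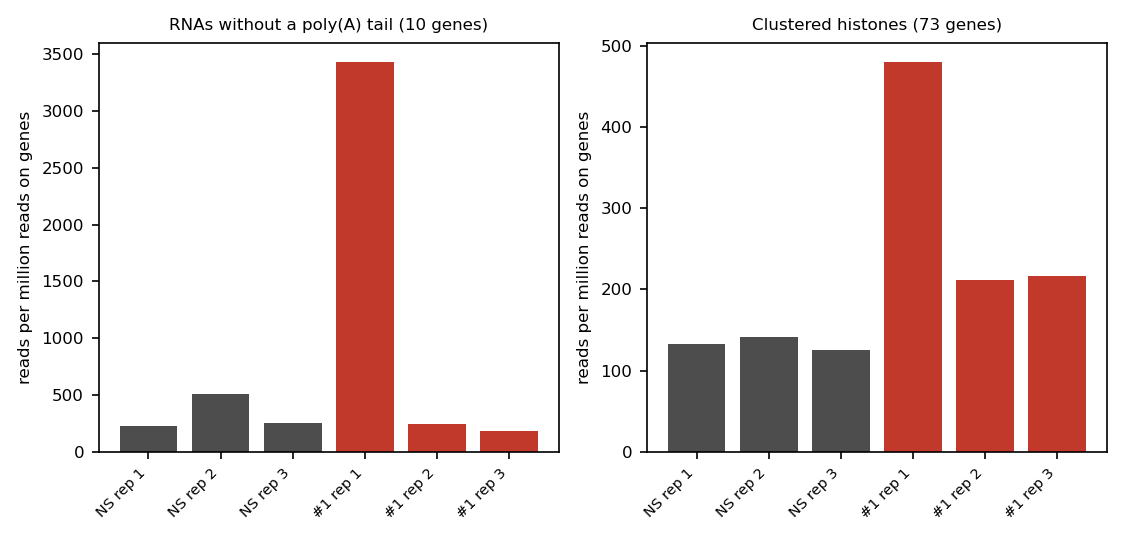
Reads per 1000000 reads on genes (vertical axes) in each of the 6 libraries, 1 bar per library, for 10 RNAs without a poly(A) tail (left) and 73 clustered histone genes (right). Replicate 1 of shRNA #1 reaches 3434 on the left and 479.9 on the right, while the other shRNA #1 libraries lie at 178 to 248 on the left and at 211 to 216 on the right, and the NS shRNA libraries at 227 to 510.3 and at 126 to 141.

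The targeted gene was lower in each shRNA #1 library. ASAH1 had 4436, 4512 and 4518 normalized counts in the 3 NS shRNA libraries and 1268, 1365 and 1348 in the 3 shRNA #1 libraries, so the groups lay far apart and 29.6% of the NS shRNA level was left. On the log2 scale this was -1.76 with a standard error of 0.05 (limma, adjusted p = 9.49e-09). Here and below, log2 fold changes are shRNA #1 minus NS shRNA on log2(normalized count + 1), and adjusted p-values are two-sided, from limma with Benjamini-Hochberg adjustment over the 14341 genes. The gene lies on chromosome 8 of hg38 from 18055992 to 18084998 on the minus strand.

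With shRNA #1, 4700 genes were called higher (32.8% of those tested) and 4779 lower (33.3%) at an adjusted p below 0.05. At least 2-fold changes were called for 968 higher genes (6.75%) and 764 lower genes (5.33%), and at least 4-fold changes for 205 and 106. On this scale the called changes fell about evenly to both sides. The median log2 fold change of all genes was 0.0013, but normalization of the libraries holds this median near 0. A shift of all genes together can therefore not be seen. A list of genes is read below against these shares of all genes.

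**Figure D2:**
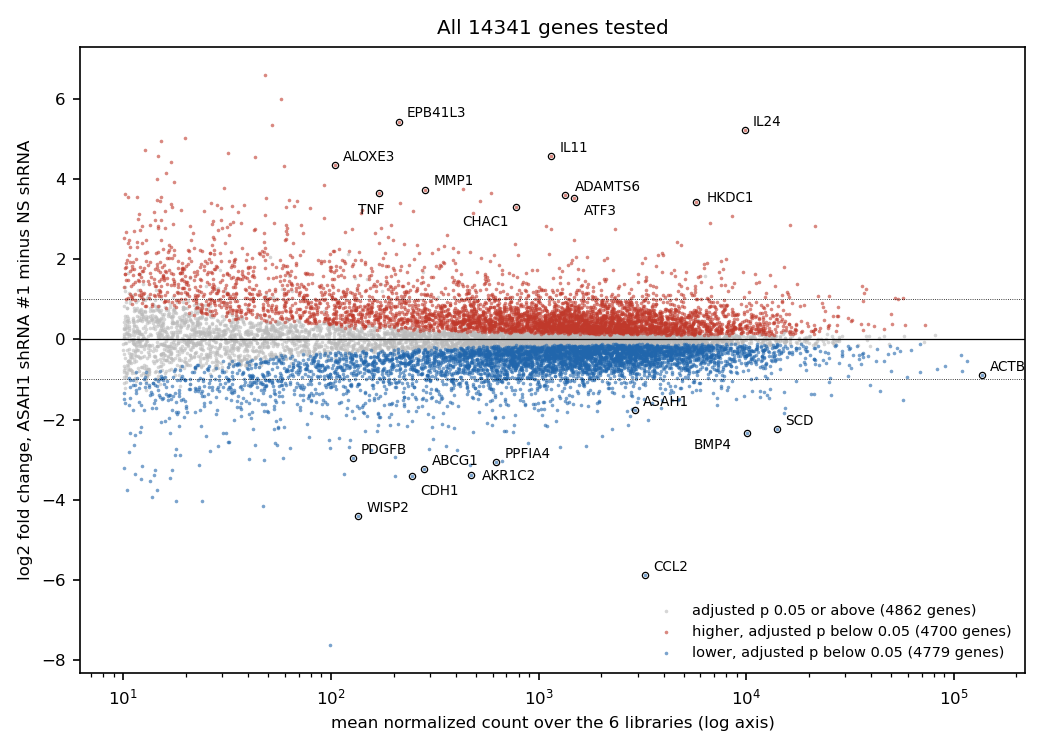
Mean normalized count over the 6 libraries (horizontal, log axis) against the log2 fold change of shRNA #1 minus NS shRNA (vertical) for the 14341 genes tested, 1 point per gene, with dotted lines at 2-fold. Of the genes circled, IL24 and EPB41L3 lie above 5 and CCL2 lies at -5.87, while ASAH1 lies at -1.76.

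The 15 largest increases were taken among genes with a mean of at least 100 whose 6 libraries do not overlap between groups. IL24, an IL10-family cytokine gene, had 527, 501 and 507 normalized counts with NS shRNA and 18964, 19055 and 19372 with shRNA #1, a 37.4-fold rise (log2 fold change 5.22, adjusted p = 7.40e-12 from limma). EPB41L3, which links membrane proteins to the cytoskeleton, went from 11.5, 4.91 and 11.1 to 411, 424 and 406. In both genes each shRNA #1 library was far above each NS shRNA library. IL11, an IL6-family cytokine gene, had 113, 86.4 and 79.4 with NS shRNA and 2115, 2209.7 and 2264 with shRNA #1 (log2 fold change 4.56). The other genes of the 15 with the largest increases had log2 fold changes from 3.22 to 4.33. They were the lipoxygenase ALOXE3, the secreted glycoprotein RELN, the interstitial collagenase MMP1, the peptide hormone ADM2, TNF, the metalloprotease ADAMTS6, the stress factor ATF3, C9orf84, the hexokinase-like HKDC1, PSG7, the glutathione-degrading enzyme CHAC1 and the sarcomere protein MYPN. PSG7 belongs to a family of near-identical genes, so its reads are uncertain.

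The largest decrease was in CCL2, the monocyte chemoattractant on chromosome 17 of hg38 from 34255274 to 34257208. It had 6352, 6249 and 6495 normalized counts with NS shRNA and 123, 85.1 and 120.1 with shRNA #1, a 58.2-fold drop (log2 fold change -5.87, standard error 0.12, adjusted p = 3.61e-09 from limma). WISP2, a secreted CCN-family protein gene, went from 252, 298 and 229 to 10.7, 10.4 and 12.5. CDH1, which encodes E-cadherin, went from 399.8, 475 and 468 to 56.2, 33.7 and 36.5, and for all 3 genes the highest shRNA #1 library lay far below the lowest NS shRNA library. ABCG1, a cholesterol exporter, had 497, 535 and 490.2 with NS shRNA and 52.1, 50.6 and 55.7 with shRNA #1 (log2 fold change -3.24). The remaining 11 of the 15 largest decreases ran from -3.40 to -2.74. They held the factor ATOH8, the aldo-keto reductase AKR1C2, the tight junction protein TJP3, the microRNA host gene MIR210HG, PPFIA4, LBH, the growth factor PDGFB, the iron exporter SLC40A1, the vessel ligand ANGPT1, B4GALNT4 and the adhesion protein MPZL2. AKR1C2 is nearly identical to AKR1C1, which was also lower at -2.14, and reads may be split between the pair.

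**Figure D3:**
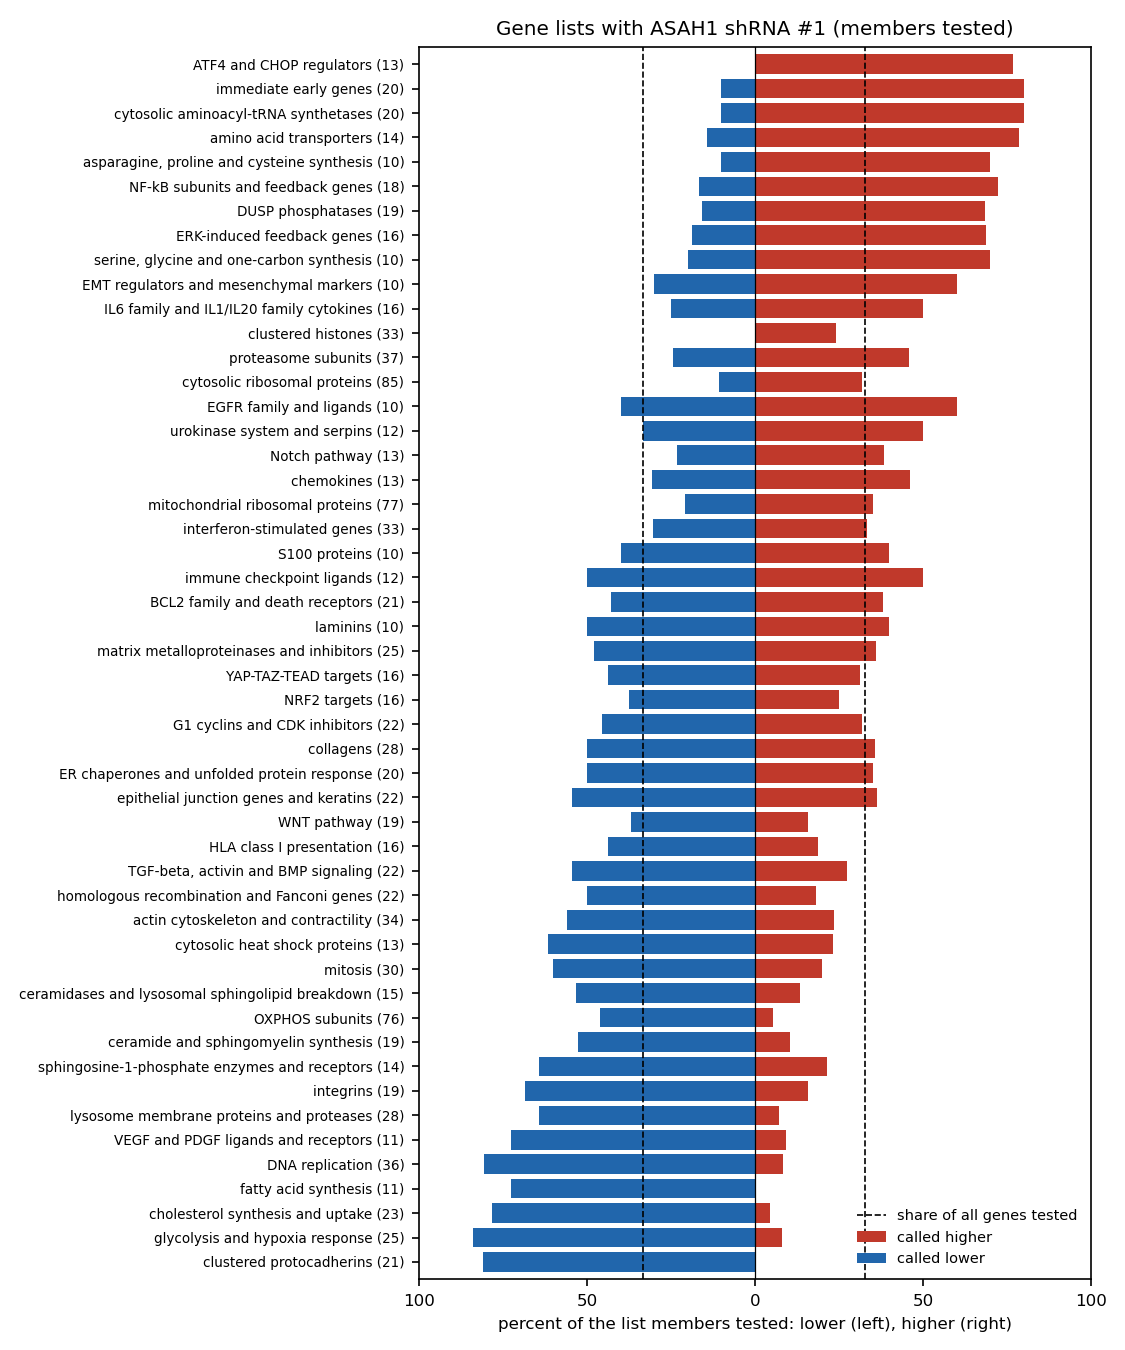
Percent of the members tested that were called higher (right) or lower (left) with shRNA #1 in the gene lists with at least 10 members tested, with the number tested in parentheses. Dashed lines mark the shares of all genes, 32.8% higher and 33.3% lower: ATF4 and CHOP regulators lie at the top with 0 members lower, and clustered protocadherins at the bottom with 0 higher.

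In the sphingolipid pathway around ASAH1, decreases were the more frequent call. Of 15 genes tested for ceramidases and the lysosomal breakdown of sphingolipids, ASAH1 included, 2 were called higher and 8 lower (0 and 1 by at least 2-fold, median log2 fold change -0.17). SMPD1, the acid sphingomyelinase that makes ceramide in the same compartment, fell by 0.65 on the log2 scale, while the sialidase NEU1 rose by 0.41. Of 19 genes for ceramide and sphingomyelin synthesis, 2 were called higher and 10 lower (0 and 1 by at least 2-fold, median log2 fold change -0.22). DEGS1, the desaturase of the last step to ceramide, had 8313, 8507 and 8614 normalized counts with NS shRNA and 4723, 4801 and 4476 with shRNA #1, so each shRNA #1 library was lower. The serine palmitoyltransferase subunit SPTLC2 changed by -0.77 and the ceramide kinase CERK by -0.81.

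The sphingosine-1-phosphate genes moved in both directions. SPHK1, the kinase that makes sphingosine-1-phosphate, had 478, 457 and 329.6 normalized counts with NS shRNA and 1587, 1755 and 2119.7 with shRNA #1, a 4.32-fold rise (log2 fold change 2.12, adjusted p = 1.83e-06 from limma), and the groups did not overlap. The transporter MFSD2A rose by 1.83 and the receptor S1PR3 by 0.64. The receptor S1PR5 went from 49.2, 59.9 and 55.4 to 6.69, 6.43 and 13.4 (log2 fold change -2.57), the exporter SPNS2 changed by -0.92 and the lyase SGPL1, which degrades sphingosine-1-phosphate, by -0.50. Of the 14 genes tested in this list, 3 were called higher and 9 lower (2 and 1 by at least 2-fold, median log2 fold change -0.34).

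Other lysosomal genes were mostly lower. Of 28 genes for lysosomal membrane proteins, proteases and other enzymes, 2 were called higher and 18 lower (1 and 2 by at least 2-fold, median log2 fold change -0.24). Cathepsin D (CTSD), an aspartic protease, had 144427, 140052 and 132621 normalized counts with NS shRNA and 78363, 79089.7 and 82799.9 with shRNA #1. Its share of all reads on genes went from 0.430% to 0.251%. NPC1, the exporter of cholesterol from the lysosome, went the other way, from 6278, 6064 and 6726 to 14824, 14613 and 13508 (log2 fold change 1.17), while NPC2, the soluble partner that hands it cholesterol, changed by -0.80. The cathepsins CTSO and CTSK had the largest decreases of the list, -1.34 and -1.05.

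Genes of the ATF4 response rose. Of 13 ATF4 and CHOP regulators tested, 10 were called higher and 0 lower (7 and 0 by at least 2-fold, median log2 fold change 1.39). ATF4 itself, whose control is mainly translational, had 4926, 5105 and 4685 normalized counts with NS shRNA and 7176, 7372 and 7817 with shRNA #1 (log2 fold change 0.60). DDIT3, which encodes the factor CHOP, went from 463, 456 and 435 to 2506, 2420.2 and 2602 (log2 fold change 2.47). Each shRNA #1 library lay above each NS shRNA library in both genes. PPP1R15A, which encodes the subunit that lets phosphatase restore eIF2α, went from 5413, 5412 and 5015 to 34688, 36747 and 40576 (log2 fold change 2.82). ATF3 had 272, 201 and 235 with NS shRNA and 2698, 2754 and 2692 with shRNA #1, and CHAC1 had 160.1, 134 and 137 with NS shRNA against 1462, 1374 and 1423 with shRNA #1. The 3 libraries of each group stayed within a narrow range for both. TRIB3, a pseudokinase induced by CHOP, rose by 1.89, and CEBPG, the dimer partner of ATF4, by 2.11. The kinase genes EIF2AK3 and EIF2AK4 were not called.

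Genes that make and import amino acids moved with the regulators. The cystathionine lyase CTH, which makes cysteine, had 601, 589.8 and 623 normalized counts with NS shRNA and 4113, 4084 and 3984 with shRNA #1, a 6.72-fold rise. ASNS, the asparagine synthetase on chromosome 7, had 1484, 1423 and 1461 with NS shRNA against 7715, 7765 and 7876 with shRNA #1, a 5.35-fold rise (log2 fold change 2.42, adjusted p = 1.66e-09 from limma). Neither gene's groups came near each other. Of 10 genes for serine, glycine and one-carbon synthesis, 7 were called higher and 2 lower (3 and 0 by at least 2-fold, median log2 fold change 0.64). PSAT1 and PHGDH of the serine pathway rose by 1.69 and 1.58, and the mitochondrial folate enzyme MTHFD2 by 1.34, whereas the cytosolic serine hydroxymethyltransferase SHMT1 changed by -0.69. Of 10 genes for asparagine, proline and cysteine synthesis and related steps, 7 were called higher and 1 lower (2 and 1 by at least 2-fold, median log2 fold change 0.48).

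Of 14 amino acid transporter genes, 11 were called higher and 2 lower (6 and 0 by at least 2-fold, median log2 fold change 0.89). SLC3A2, the common heavy chain of several transporters, went from 7146, 6943 and 6214 to 22429, 23301 and 24812 normalized counts. Its light chains SLC7A11, the cystine importer, and SLC7A5, the leucine transporter, rose by 1.57 and 1.06, and the glutamine transporter SLC1A5 by 1.44. The glutamate transporter SLC1A3 changed by -0.87. Of 20 cytosolic aminoacyl-tRNA synthetase genes, which charge tRNAs with their amino acids, 16 were called higher and 2 lower (4 and 0 by at least 2-fold, median log2 fold change 0.64). YARS and AARS had the largest rises, 1.75 and 1.68. QARS went the other way, with 6827, 6809 and 6467 with NS shRNA and 3720.0, 3785 and 4106 with shRNA #1 (log2 fold change -0.79), and HARS changed by -0.25. SESN2, a sensor that restrains mTORC1 when leucine is scarce, had 284, 284 and 319 with NS shRNA against 2023, 1996 and 2002 with shRNA #1 (log2 fold change 2.76), while of the 8 mTORC1 brakes tested 1 was called higher and 5 lower (1 and 2 by at least 2-fold, median log2 fold change -0.38).

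**Figure D4:**
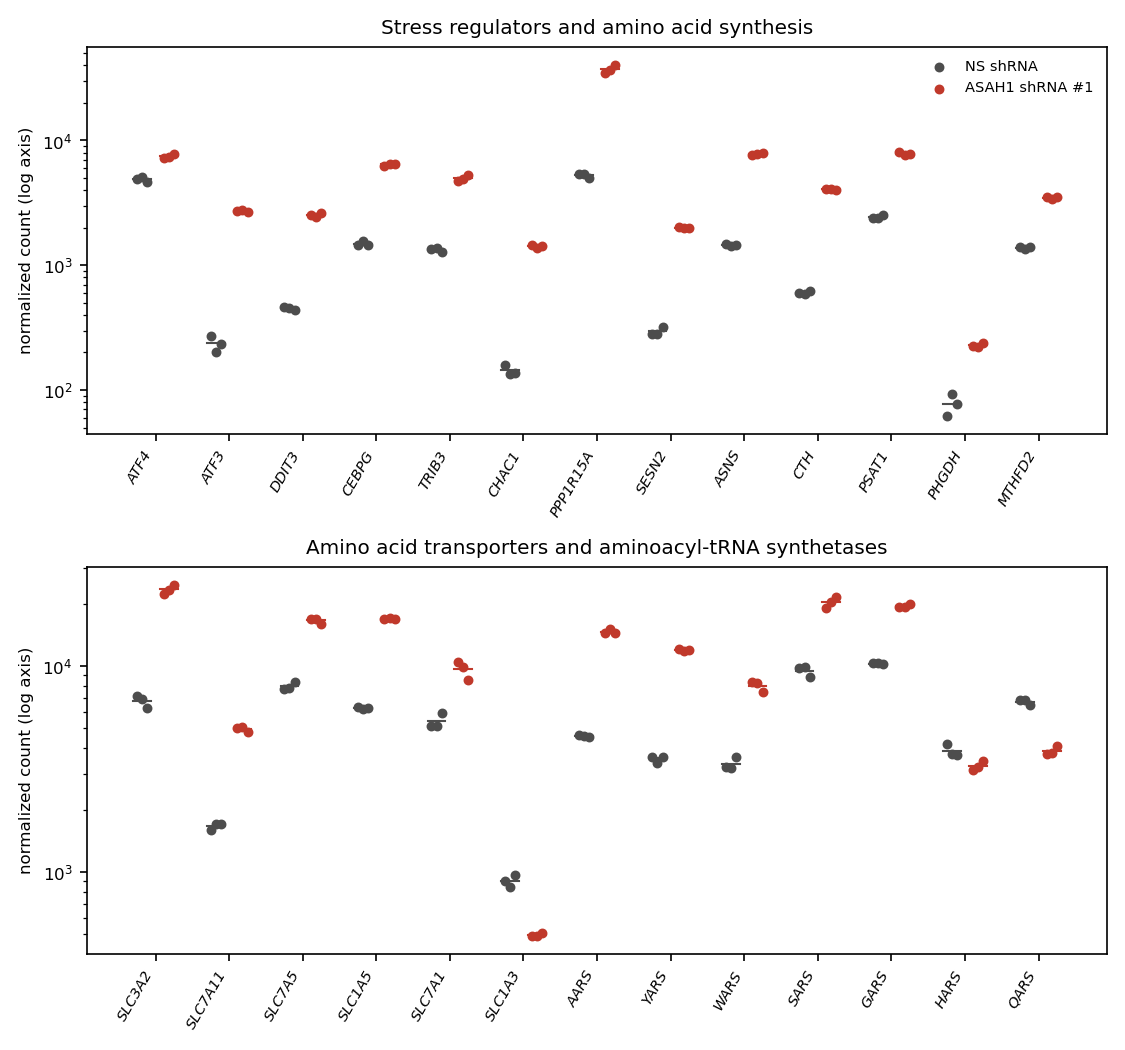
Normalized count (log axis) of stress regulator and amino acid genes in each library, 3 points per group beside a line at the group mean, grey for NS shRNA and red for shRNA #1. The red points lie above the grey ones for each gene except SLC1A3, HARS and QARS, where they lie below.

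The response element that ATF4 and its C/EBP partners bind has the core TGATGNAA. It was searched on both strands in RefSeq promoters of GRCh38.p14, which run from 250 bases before to 50 bases after a transcript start, and 10462 of the 14341 genes tested matched an entry by current or older symbol. Among ATF4 and CHOP regulators, amino acid transporters and tRNA synthetases, 40 of 47 genes tested had an entry and 17 of these held the motif in at least 1 promoter (42.5%), against 2.69% of all genes tested with an entry and 3.62% of all 35116 promoter entries. Of the 31 called higher, 16 held it, and of the 4 called lower, 1 did. Genes for serine, glycine and one-carbon synthesis and for asparagine, proline and cysteine synthesis were not part of this count. ASNS is an asparagine synthesis gene, so its match is not among the 17. The count takes in matches anywhere in a promoter entry, also across or after the start, while the windows below were drawn only from matches lying wholly before it. A match is a description of the letters and was not tested as a binding site. Windows from 5 genes that rose are shown because their log2 fold changes span 1.68 to 3.53, and SLC1A3 is shown as the member that fell. They run in the direction of transcription, with the motif or its reverse complement in capitals.
ATF3, chr1:212565190-212565249, plus strand: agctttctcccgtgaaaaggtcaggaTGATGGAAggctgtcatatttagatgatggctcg
CHAC1, chr15:40953236-40953295, plus strand: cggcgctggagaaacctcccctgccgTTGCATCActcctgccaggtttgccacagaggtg
ASNS, chr7:97872443-97872502, minus strand: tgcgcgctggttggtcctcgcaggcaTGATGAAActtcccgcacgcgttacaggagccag
CEBPG, chr19:33374045-33374104, plus strand: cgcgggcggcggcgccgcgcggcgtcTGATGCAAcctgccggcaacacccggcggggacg
AARS, chr16:70289660-70289719, minus strand: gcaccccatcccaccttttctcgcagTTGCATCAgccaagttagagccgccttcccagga
SLC1A3, chr5:36596342-36596401, plus strand: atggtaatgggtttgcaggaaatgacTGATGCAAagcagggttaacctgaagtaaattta

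The motif began 68 bases before the start in ASNS, 42 in CEBPG, 191 in ATF3 and 209 in CHAC1, with the reverse complement in CHAC1 and AARS. In SLC1A3, which changed by -0.87, it began 220 bases before the start, about as far as in CHAC1.

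Other stress genes moved less uniformly. Of 20 genes for endoplasmic reticulum chaperones and the unfolded protein response, 7 were called higher and 10 lower (1 and 0 by at least 2-fold, median log2 fold change -0.23). ERN1, which encodes the sensor IRE1, had 117, 163 and 159 normalized counts with NS shRNA and 699, 763 and 548 with shRNA #1, and XBP1, whose transcript IRE1 splices, rose by 0.94. The chaperone gene HSPA5 rose by 0.47, while CALR, HSP90B1 and PDIA4 changed by -0.38, -0.39 and -0.42. Of 13 cytosolic heat shock genes, 3 were called higher and 8 lower (0 and 3 by at least 2-fold, median log2 fold change -0.38). HSPA8, the constitutive HSP70, had 55135, 53359 and 54121 with NS shRNA against 24682, 24586 and 24977 with shRNA #1 (log2 fold change -1.13), so all 3 shRNA #1 libraries were far below the NS shRNA range. The inducible HSPA1A fell by 2.28, and its near copy HSPA1B, with which it may share reads, by 1.40. Of 16 NRF2 target genes, 4 were called higher and 6 lower (1 and 1 by at least 2-fold, median log2 fold change -0.11).

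GADD45A, a stress-inducible cell cycle regulator, had 2017, 1811 and 1596 normalized counts with NS shRNA and 13642, 14943 and 17309 with shRNA #1 (log2 fold change 3.08). CDKN1A, the inhibitor p21 of cyclin-dependent kinases, had 1314, 1234 and 1303 with NS shRNA against 5196, 5262 and 5297 with shRNA #1 (log2 fold change 2.03). Both were higher in each shRNA #1 library, and the antiproliferative gene BTG2 rose by 1.83. These 3 genes are named for the size of their change and do not stand for other genes with like roles.

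Immediate early genes, the first transcription factors made after a growth signal or stress, were higher. Of 20 tested, 16 were called higher and 2 lower (12 and 0 by at least 2-fold, median log2 fold change 1.29). EGR1 had 325, 236 and 249 normalized counts with NS shRNA and 2034, 1843 and 1816 with shRNA #1 (log2 fold change 2.82). FOSB had 15.7, 8.83 and 12 with NS shRNA against 97.6, 92.4 and 93.2 with shRNA #1. MYC, the growth regulator, had 5987, 6025 and 6275 with NS shRNA against 16411, 16086 and 15924 with shRNA #1 (log2 fold change 1.40). In all 3 genes the lowest shRNA #1 library lay above the highest NS shRNA library. JUN, KLF10 and MAFF rose by 1.30, 2.15 and 1.59, while IER5 and JUND changed by -0.35 and -0.28. Of 16 feedback genes that ERK signaling induces, 11 were called higher and 3 lower (4 and 1 by at least 2-fold, median log2 fold change 0.35), with DUSP5 at 1.52, PHLDA1 at 1.26, DUSP4 at -0.78 and SPRY1 at -1.41. Of 19 DUSP genes, 13 were called higher and 3 lower (4 and 1 by at least 2-fold, median log2 fold change 0.51). Among 10 genes of the EGFR family and its ligands, 6 were called higher and 4 lower (4 and 0 by at least 2-fold, median log2 fold change 0.23). EGFR had 2791, 3415 and 4241 with NS shRNA against 8369, 8706 and 6464 with shRNA #1, the ligands NRG1 and EREG rose by 1.68 and 1.58, and the receptors ERBB2 and ERBB3 changed by -0.69 and -0.87.

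Serum response factor binds the CArG box, a motif of immediate early and actin genes. Of 34 actin cytoskeleton genes tested, 30 had a promoter entry and 7 of these held a CArG box (23.3%), as did 2 of 16 immediate early genes with an entry (12.5%), against 1.56% of all genes tested with an entry. The box was in 2 of 6 actin genes called higher and 3 of 17 called lower. It was in 2 of 13 immediate early genes called higher and 0 of 2 called lower. Windows of 2 immediate early genes that rose and 2 actin genes that fell are shown, since CArG boxes lay in promoters of both. The counts again take in boxes across or after the start, while these windows lie wholly before it. Each has 1 box in capitals. The EGR1 window also holds a second box, left in small letters, that begins 83 bases before the start.
EGR1, chr5:138465348-138465409, plus strand: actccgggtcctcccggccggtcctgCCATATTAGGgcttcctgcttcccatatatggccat
EGR2, chr10:62816402-62816463, minus strand: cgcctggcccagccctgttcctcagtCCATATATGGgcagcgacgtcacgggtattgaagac
ACTG1, chr17:81512858-81512919, minus strand: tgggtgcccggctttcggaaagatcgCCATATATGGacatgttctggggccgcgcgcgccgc
CNN2, chr19:1026493-1026554, plus strand: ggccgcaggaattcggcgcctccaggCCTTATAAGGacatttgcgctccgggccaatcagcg

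EGR2 rose by 1.73. Of the 34 actin cytoskeleton genes, 8 were called higher and 19 lower (2 and 1 by at least 2-fold, median log2 fold change -0.22). ACTB, a common reference transcript, had 185558, 177261 and 168009 normalized counts with NS shRNA and 94803, 91223 and 100995 with shRNA #1, and its share of reads went from 0.548% to 0.300%, the largest drop of any called gene. ACTG1 fell by 0.66 on the log2 scale, the actin-sequestering TMSB4X by 1.07 and the calponin CNN2 by 0.76. ZYX, FHL2 and SRF itself rose, by 0.60, 1.12 and 0.47, and the calponin CNN1 had 0, 1 and 0 reads with NS shRNA and 24, 39 and 25 with shRNA #1 (at least 9.88-fold higher).

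Several cytokine genes other than IL24 and IL11 also rose. Of 16 genes of the IL6, IL1 and IL20 families and their receptors, 8 were called higher and 4 lower (7 and 0 by at least 2-fold, median log2 fold change 0.34). IL1A had 3781, 3881 and 4133 normalized counts with NS shRNA and 29630.0, 28787 and 26987 with shRNA #1, a 7.24-fold rise. IL6 had 3429.6, 3420.1 and 3673 with NS shRNA against 11796, 11122 and 10995 with shRNA #1 (log2 fold change 1.69), and LIF rose by 1.34. The receptor subunits IL11RA and LIFR changed by -0.84 and -0.37, and the shared subunit IL6ST by 0.63. Of 18 NF-kB subunits and feedback genes, 13 were called higher and 3 lower (9 and 2 by at least 2-fold, median log2 fold change 1.03). TNF had 23, 24.5 and 25.9 with NS shRNA against 310.2, 328 and 310.4 with shRNA #1. CSF2, which encodes GM-CSF, had 3261, 3172 and 2875 with NS shRNA against 11901, 11529 and 12405 with shRNA #1. Both lay far above their NS shRNA range. The feedback inhibitors TNFAIP3 and NFKBIE and the adaptor TRAF1 rose by 2.12, 1.45 and 2.35. CSF1, the macrophage growth factor, moved the other way, with 59858, 63009 and 64390.5 with NS shRNA against 25758, 25774 and 24754 with shRNA #1 (log2 fold change -1.30), as did TNFAIP2 at -1.43.

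The chemokines split. Of 13 tested, 6 were called higher and 4 lower (1 and 3 by at least 2-fold, median log2 fold change 0.29). Besides CCL2, the neutrophil chemokine CXCL1 was lower, with 11671, 11323 and 11254 normalized counts with NS shRNA and 4865, 4974 and 5089.7 with shRNA #1 (log2 fold change -1.20). Its relatives CXCL2 and CXCL8 were higher, CXCL8 with 19382, 20796 and 20037 with NS shRNA against 35132, 35145 and 35180.2 with shRNA #1 (log2 fold changes 1.48 and 0.81). CXCL1 and CXCL8 were thus apart between groups in opposite directions. CCL28 changed by -1.09 and CXCL16 by 0.93.

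**Figure D5:**
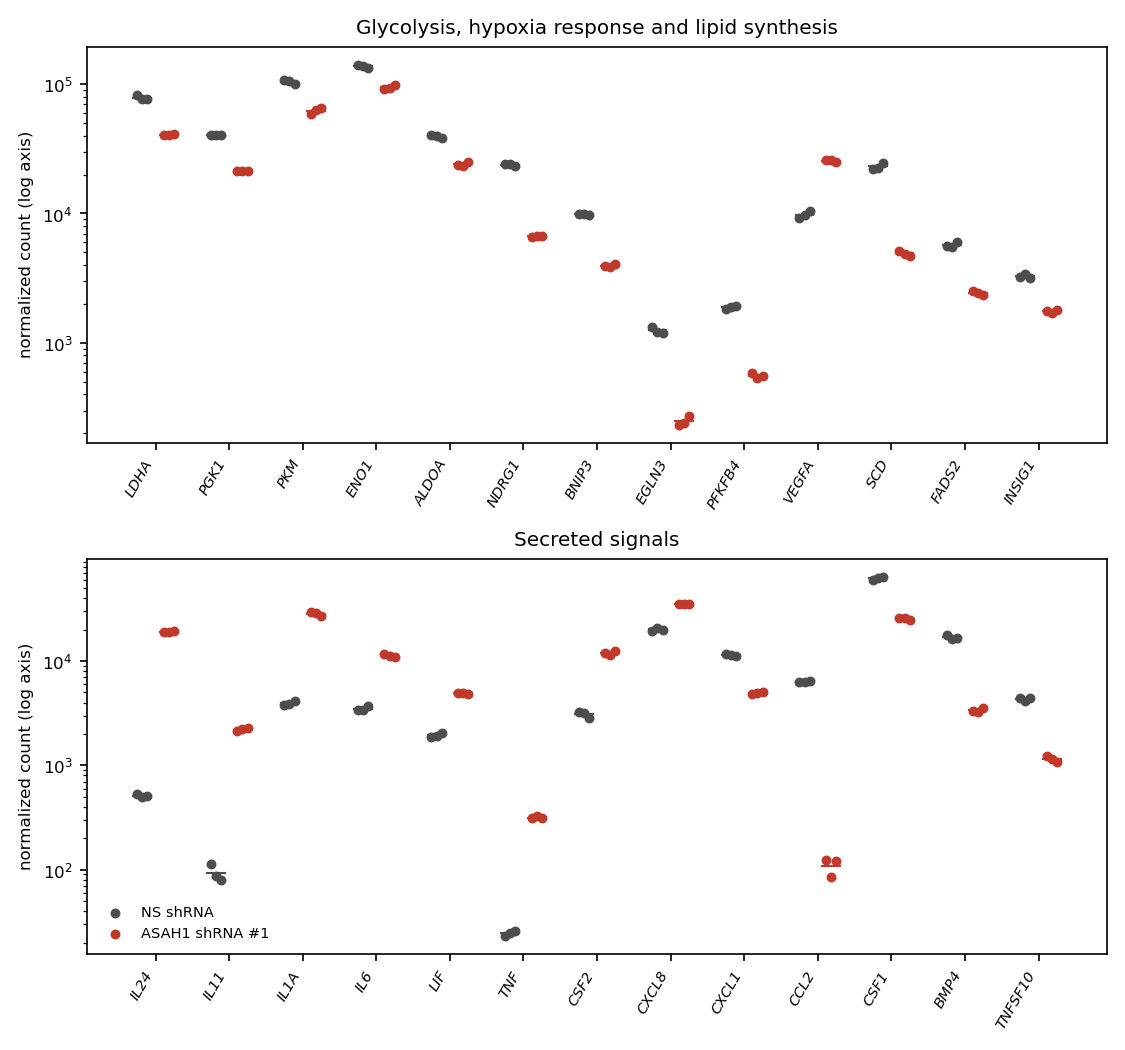
Normalized count (log axis) of metabolic genes (top) and of genes for secreted signals (bottom) in each library, 3 points per group beside a line at the group mean, grey for NS shRNA and red for shRNA #1. In the top panel the red points lie below the grey ones except for VEGFA, and in the bottom panel CXCL1, CCL2, CSF1, BMP4 and TNFSF10 lie lower with shRNA #1 and the other 8 genes higher.

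Interferon-stimulated genes moved in both directions. Of 33 tested, 11 were called higher and 10 lower (0 and 4 by at least 2-fold, median log2 fold change 0.025), shares close to those of all genes. The membrane proteins IFITM1 and BST2, which block virus entry and release, went from 972, 891 and 1091 to 330.3, 304 and 305 and from 6946, 6349.5 and 5411 to 2559, 2604 and 3213 normalized counts. ISG15, RSAD2 and OASL rose by 0.77, 1.00 and 0.87. Of 16 genes for HLA class I presentation, 3 were called higher and 7 lower (median log2 fold change -0.17), with TAP2 at 0.77 and NLRC5, an activator of class I genes, at -0.85. Among 12 ligands of immune checkpoints, 6 were called higher and 6 lower (1 and 1 by at least 2-fold, median log2 fold change 0.08). CD274, which encodes PD-L1, had 632, 580.0 and 724 with NS shRNA and 1958, 1956 and 1781 with shRNA #1 (log2 fold change 1.56, adjusted p = 4.16e-07 from limma). CD47, a signal that restrains macrophages, had 7359.5, 7814 and 7445 with NS shRNA against 4953, 4941 and 5188 with shRNA #1 (log2 fold change -0.58). The poliovirus receptor gene PVR rose by 0.85.

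Glycolysis and hypoxia response genes were lower. Of 25 tested, 2 were called higher and 21 lower (1 and 7 by at least 2-fold, median log2 fold change -0.72). LDHA, which reduces pyruvate to lactate, had 82091, 76331 and 76158 normalized counts with NS shRNA and 40347, 40253 and 41115 with shRNA #1, and its share of reads went from 0.242% to 0.127%. PGK1 had 40671, 40315 and 40361 with NS shRNA against 21201, 21441 and 21458 with shRNA #1, and PKM and ENO1 changed by -0.75 and -0.54. NDRG1 had 24103, 24021 and 23308 with NS shRNA against 6596, 6699.9 and 6752 with shRNA #1 (log2 fold change -1.83). For each of these the groups were clearly separated. EGLN3, an oxygen-sensing hydroxylase that is itself induced by hypoxia, went from 1324, 1219.9 and 1203 to 234, 241 and 275 (log2 fold change -2.32), and the hypoxia-induced PFKFB4, BNIP3 and CA9 fell by 1.75, 1.33 and 1.05. The 2 members called higher were HK2 at 0.19 and VEGFA, another gene known to be induced by hypoxia, with 9168, 9794 and 10462 with NS shRNA and 25858, 25702 and 24826 with shRNA #1 (log2 fold change 1.38).

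Lipid synthesis genes followed the same direction. SCD, the desaturase that makes oleate, had 22017, 22625 and 24669 normalized counts with NS shRNA and 5129, 4872 and 4733 with shRNA #1, a 4.7-fold drop (log2 fold change -2.23, adjusted p = 5.25e-09 from limma), and the groups were far apart. Of 11 fatty acid synthesis genes, 0 were called higher and 8 lower (0 and 2 by at least 2-fold, median log2 fold change -0.30), with FADS2 at -1.24, the regulator SREBF1 at -0.95 and FASN at -0.30. Of 23 genes for cholesterol synthesis and uptake, 1 was called higher and 18 lower (median log2 fold change -0.53). INSIG1 and MSMO1 fell by 0.90 and 0.88, and the regulator SREBF2 by 0.60.

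Of 76 subunits of the respiratory chain, 4 were called higher and 35 lower (median log2 fold change -0.22). Among 85 cytosolic ribosomal protein genes, 27 were called higher and 9 lower (2 and 0 by at least 2-fold, median log2 fold change 0.064), and among 77 mitochondrial ribosomal protein genes, 27 were called higher and 16 lower (median log2 fold change 0.036). Of 37 proteasome subunit genes, 17 were called higher and 9 lower (median log2 fold change 0.072). Of 5 metallothioneins tested, 1 was called higher and 2 lower (0 and 1 by at least 2-fold, median log2 fold change -0.18).

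Adhesion genes were lower more often than higher. Of 19 integrin genes tested, 3 were called higher and 13 lower (1 and 6 by at least 2-fold, median log2 fold change -0.50). ITGB4, a laminin receptor subunit, had 9977, 10437 and 11070.0 normalized counts with NS shRNA and 4747, 4533 and 4322 with shRNA #1 (log2 fold change -1.21), and ITGB8, an activator of latent TGF-beta, fell by 1.63. The fibronectin receptor subunit ITGA5 rose by 0.83. Of 10 laminin genes, 4 were called higher and 5 lower (3 and 2 by at least 2-fold, median log2 fold change -0.046), with LAMB3, a chain of laminin-332, at 1.15 and LAMA5 at -1.41. LAMB3 went from 23204, 24241 and 21463 to 47996, 51301 and 54113. Of 28 collagen genes, 10 were called higher and 14 lower (4 and 6 by at least 2-fold, median log2 fold change -0.19), and of 25 matrix metalloproteinases and inhibitors, 9 were called higher and 12 lower (5 and 6 by at least 2-fold, median log2 fold change -0.25). MMP1 had 38.7, 44.2 and 34.2 with NS shRNA and 509, 532 and 544 with shRNA #1, whereas the membrane-bound MMP15 fell by 1.95. Of 12 genes of the urokinase system and serpins, 6 were called higher and 4 lower (3 and 1 by at least 2-fold, median log2 fold change 0.40). PLAU, which encodes urokinase, had 20652, 20733 and 20182 with NS shRNA against 50904, 51463 and 52474 with shRNA #1 (log2 fold change 1.33), and each shRNA #1 library lay above each NS shRNA library.

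Genes of the epithelial and mesenchymal states moved as follows. Of 22 epithelial junction and keratin genes, 8 were called higher and 12 lower (2 and 5 by at least 2-fold, median log2 fold change -0.64). KRT8 had 13495, 13044 and 13026 normalized counts with NS shRNA and 4644, 4696 and 4668 with shRNA #1 (log2 fold change -1.50), its partner KRT18 fell by 0.78 and plakoglobin (JUP) by 1.09. Desmoplakin (DSP) and the claudin CLDN1 rose by 1.01 and 0.83. Among 10 EMT regulators and mesenchymal markers, 6 were called higher and 3 lower (3 and 2 by at least 2-fold, median log2 fold change 0.60). The repressors of CDH1 SNAI2, ZEB2 and ZEB1 rose by 1.35, 1.26 and 0.55, with SNAI2 at 884, 863 and 984 with NS shRNA and 2409.6, 2330.2 and 2224 with shRNA #1. The mesenchymal marker S100A4 went from 32682, 30743 and 25601 to 10780.1, 10906 and 12815 (log2 fold change -1.36), and VIM changed by -0.27.

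The clustered protocadherins, cell surface proteins encoded side by side on chromosome 5, were lower, with no member called higher. Of 53 in the table, 21 passed the filter on the mean, some of them only through their NS shRNA level, and 0 were called higher and 17 lower (0 and 17 by at least 2-fold, median log2 fold change -1.18). PCDHB10 had 121, 128 and 129 normalized counts with NS shRNA and 30.8, 39.4 and 33.6 with shRNA #1. PCDHB14 had 276, 323 and 345 with NS shRNA against 152, 141 and 148 with shRNA #1. The groups did not overlap for either gene. The genes of a cluster are alike in sequence and gamma members share 3′ exons, so their reads may be split between members and the members are not independent.

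BMP4, a secreted morphogen, had 17611, 16444 and 16591 normalized counts with NS shRNA and 3285, 3274 and 3541 with shRNA #1, a 5.01-fold drop (log2 fold change -2.33, adjusted p = 3.80e-09 from limma). ID1, a target of BMP signaling, went from 3937, 3775 and 3456 to 785, 753 and 851, and the targets ID2 and SMAD6 fell by 1.86 and 2.04. For BMP4 and ID1 no library of one group reached the other. With shRNA #2, BMP4 had a log2 fold change of -0.091 against NS shRNA (adjusted p = 0.107 from edgeR). ID1, ID2 and SMAD6 had -1.71, -1.05 and -1.26 there, and a link between BMP4 and these targets was not tested. GDF15, a stress-induced hormone of the same superfamily, rose 7.51-fold with shRNA #1, from 1641, 1625 and 1454 to 11387, 11236 and 12832, and INHBA rose by 1.64. Of the 22 genes tested for TGF-beta, activin and BMP signaling, 6 were called higher and 12 lower (2 and 6 by at least 2-fold, median log2 fold change -0.37). Of 11 VEGF and PDGF ligands and receptors, 1 was called higher and 8 lower (1 and 4 by at least 2-fold, median log2 fold change -0.36), with PGF at -2.28 and PDGFB at -2.95. In the Notch pathway, 5 were called higher and 3 lower (2 and 1 by at least 2-fold, median log2 fold change 0.30) of 13 genes, with NOTCH1 at 0.96 and LFNG at -1.56. Of 19 WNT pathway genes, 3 were called higher and 7 lower (2 and 2 by at least 2-fold, median log2 fold change -0.16), with the coreceptor LRP5 at -1.46. Of 16 YAP, TAZ and TEAD genes and targets, 5 were called higher and 7 lower (median log2 fold change -0.078).

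DNA replication genes were lower, by modest amounts. Of 36 tested, 3 were called higher and 29 lower (0 and 3 by at least 2-fold, median log2 fold change -0.40). MCM5, a subunit of the replicative helicase, had 3615, 3638 and 3589 normalized counts with NS shRNA and 1567, 1612 and 1539 with shRNA #1 (log2 fold change -1.20). PCNA, the sliding clamp, had 10486, 10227 and 9533 with NS shRNA against 4922, 4783 and 5404 with shRNA #1. The groups were apart for both genes, and the ligase LIG1 fell by 1.09. In RNA from whole cultures, fewer cells in S phase and less RNA per cell cannot be told apart. Of 30 mitosis genes, 6 were called higher and 18 lower (median log2 fold change -0.22), and of 22 homologous recombination and Fanconi genes, 4 were called higher and 11 lower (median log2 fold change -0.17). Of 22 G1 cyclins, cyclin-dependent kinases and their inhibitors, 7 were called higher and 10 lower (4 and 1 by at least 2-fold, median log2 fold change -0.18). CDK6 rose by 1.63 and the inhibitor CDKN2C fell by 1.25. Of 21 BCL2 family and death receptor genes, 8 were called higher and 9 lower (2 and 1 by at least 2-fold, median log2 fold change -0.11). TNFSF10, which encodes the death ligand TRAIL, had 4411, 4172 and 4448 with NS shRNA against 1233, 1145 and 1084 with shRNA #1 (log2 fold change -1.91), while the receptor TNFRSF10A and the BH3-only gene PMAIP1 rose by 1.14 and 1.05.

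Clustered histone genes were highest in 1 library. They had 126 to 141 reads per 1000000 reads on genes with NS shRNA, 479.9 in replicate 1 of shRNA #1, and 211 and 216 in replicates 2 and 3, which also lay above the NS shRNA range. Of 73 in the table, 33 passed the filter, some only through replicate 1 of shRNA #1, and 8 were called higher and 0 lower (7 and 0 by at least 2-fold, median log2 fold change 1.20). Against the NS shRNA mean, the median histone gene was higher by 3.45 on the log2 scale in replicate 1 of shRNA #1, by 0.44 in replicate 2 and by 0.13 in replicate 3. Without replicate 1, 25 histone genes passed the filter, 6 were called higher and 1 lower, and the median log2 fold change was 0.20. HIST1H1C and HIST1H2BK, whose log2 fold changes over all libraries were 1.20 and 0.44, were among those called in both fits. The part of the RNAs without a poly(A) tail in this result was not tested.

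Some transcripts were at 3 reads or fewer in all 3 libraries of a group. There were 67 such genes with at least 10 mean normalized counts in shRNA #1 and 17 with at least 10 in NS shRNA, and their folds are lower bounds against a floor of 3 reads per library. Of these, 20 and 12 reached the mean of 10 over the 6 libraries, and 47 and 5 did not and so lie outside the genes tested. Without replicate 1 of shRNA #1, 55 of the 67 and 19 of the 20 still met the rule, as did all 17 of the other direction. The genes named next were all among those tested. GYPC, a red cell membrane protein gene, had 2, 0 and 1 reads with NS shRNA and 82, 145 and 122 with shRNA #1 (at least 38.8-fold higher). PLCB4, a phospholipase gene, had 0 reads in each NS shRNA library and 86, 119 and 80 with shRNA #1 (at least 32.5-fold higher). No library of one group came near the other. The long noncoding CCAT1, the protease inhibitor SERPINB2 and the glycosyltransferase GALNT14 were at least 34.6-fold, 13.3-fold and 11.3-fold higher. In the other direction SIRPB1, CD180, MAP2K6 and SCARA5 were at least 14.9-fold, 10.3-fold, 8.58-fold and 8.55-fold lower. The bounds set the mean of the higher group against the floor and include no error of that mean.

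The largest bound belonged to MIR30A, the hairpin gene of the microRNA miR-30a, on chromosome 6 of GRCh38.p14. It had 212, 223 and 166 reads with NS shRNA and 0 in each shRNA #1 library, at least 63.8-fold lower, and 4, 2 and 1 reads with shRNA #2. The libraries were not made for small RNAs, so these reads do not measure the mature microRNA. The vector sequence is not given, and whether these reads came from the cells' own gene was not tested. The hairpin is shown since it is the whole of the gene counted, from RefSeq with both mature arms in capitals, and then the mature 5p arm with its seed (bases 2 to 8) in capitals.
MIR30A hairpin, chr6:71403551-71403621, minus strand: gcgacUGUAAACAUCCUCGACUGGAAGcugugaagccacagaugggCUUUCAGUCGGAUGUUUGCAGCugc
hsa-miR-30a-5p, chr6:71403595-71403616, minus strand: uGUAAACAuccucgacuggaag

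Of 10 S100 genes tested, 4 were called higher and 4 lower (1 and 1 by at least 2-fold, median log2 fold change -0.17). Of 81 MAGE and other cancer-testis genes in the table, 1 was tested, PAGE5, which changed by -1.04. Of the markers of other cell types, the monocyte marker CD14 had 1065, 973 and 869.7 normalized counts with NS shRNA and 207, 235 and 211 with shRNA #1. ITGAM, another myeloid marker, went the other way at low levels, from 6.28, 1.96 and 0.92 to 16.1, 12.1 and 25.9, and passed the filter only through shRNA #1. Of the 9 fibroblast markers, 5 were tested and 0 were called higher and 4 lower (0 and 3 by at least 2-fold, median log2 fold change -1.03), the 9 summing to 2155 to 2196 normalized counts per NS shRNA library and 1426 to 1557 per shRNA #1 library. The fibroblast markers DCN, THY1 and POSTN stayed at or near 0 in each library, while COL1A1, COL1A2, PDGFRB and LUM stayed at 98.0 or more. Of 9 blood and endothelial markers, 3 were tested and 1 was called higher and 2 lower (1 and 1 by at least 2-fold, median log2 fold change -0.59), the 9 summing to 979 to 1190.0 normalized counts per NS shRNA library and 295 to 332 per shRNA #1 library. Of 10 markers of the line itself, 4 were called higher and 3 lower (1 and 0 by at least 2-fold, median log2 fold change -0.095), and of 7 breast receptor and keratin markers 3 were tested and 0 were called higher and 3 lower (median log2 fold change -0.69).

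By share of the reads, the genes that gained most were HMGA1, from 0.116% to 0.240% of reads on genes, IER3 from 0.110% to 0.226% and the autophagy receptor SQSTM1 from 0.105% to 0.218%. PPP1R15A went from 0.0163% to 0.117%, PLAU from 0.0635% to 0.162% and PHLDA1 from 0.0688% to 0.167%, and LAMB3 and IL1A were also among the 10. The genes that lost most after ACTB and CTSD were IGFBP4, a binder of insulin-like growth factors, from 0.259% to 0.0922%, and the glycolytic ENO1 from 0.425% to 0.296%. PKM, ACTG1, MALAT1, LDHA, CSF1 and HSPA8 complete this list. MALAT1, a nuclear noncoding RNA, varied widely within each group, at 117350.0, 80198 and 65975 with NS shRNA and 63499, 37802 and 48415 with shRNA #1, and its groups lay close together.

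The hairpins were compared directly on whole reads recovered from the normalized counts of the 9 libraries (edgeR, quasi-likelihood test), and 63.3% of 14714 genes differed between them. Both hairpins were set against the same NS shRNA libraries. The genes named here were chosen on their shRNA #1 values, which the comparison of hairpins uses again, so that choice favours a difference and a value nearer 0 with shRNA #2. All 15 genes with the largest increases under shRNA #1 differed, each with the smaller value under shRNA #2. The log2 fold change of IL24 was 5.23 with shRNA #1 and 2.28 with shRNA #2, that of IL11 4.58 and 3.87, and that of CHAC1 3.31 and 2.72. HKDC1 had 3.44 with shRNA #1 and 0.099 with shRNA #2 (adjusted p against NS shRNA = 0.155, difference between hairpins -3.34, adjusted p = 9.59e-12, all from edgeR). All 15 genes with the largest decreases differed too, 11 with a value nearer 0 under shRNA #2, ABCG1 among them with the opposite sign, and 4 with a larger drop. CCL2 had -5.88 and -9.67, and CDH1 had -3.45 and -5.05, so both were lower still with shRNA #2. B4GALNT4 had -2.76 with shRNA #1 and -0.0071 with shRNA #2, a difference of 2.75 (adjusted p = 3.20e-08 from edgeR). Of 217 named genes, 19 were called in opposite directions with the hairpins, among them PHGDH at 1.58 and -1.20, RSAD2 at 1.01 and -1.37, and AKR1C1 at -2.13 and 0.68.

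Medians of the lists under edgeR are given side by side. Amino acid transporters had a median log2 fold change of 0.90 with shRNA #1 and 1.26 with shRNA #2, tRNA synthetases 0.64 and 0.76, and ATF4 and CHOP regulators 1.40 and 1.17. Immediate early genes had 1.29 and 0.41, NF-kB genes 1.02 and 0.20, and glycolysis and hypoxia genes -0.71 and -0.18. Cytosolic heat shock genes had -0.37 and 0.30, and chemokines 0.29 and -1.13. Of these lists, the hairpins differed by edgeR at 15 of 20 immediate early genes, 21 of 25 glycolysis and hypoxia genes, 12 of 13 heat shock genes and 12 of 14 transporters, against 63.3% of all genes. They differed at 13 of 20 tRNA synthetases, 12 of 18 NF-kB genes, 11 of 13 ATF4 and CHOP regulators and 10 of 13 chemokines. Serine, glycine and one-carbon genes had medians of 0.64 with shRNA #1 and 0.036 with shRNA #2, where 3 were called higher and 4 lower. Asparagine, proline and cysteine genes had 0.49 and 1.03. Endoplasmic reticulum chaperone and unfolded protein response genes had -0.23 and 0.48, fatty acid synthesis genes -0.29 and 0.041, and DNA replication genes -0.39 and -0.068.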

How the data were processed

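MDA-MB-231 RNA was sequenced in 3 NS shRNA, 3 ASAH1 shRNA #1 and 3 ASAH1 shRNA #2 libraries, which the labels call biological replicates. Per the labels and the study's methods, the authors used Trimmomatic 0.36 for trimming, STAR 2.7.1a for alignment to hg38 and HTSeq for counts per gene. They normalized each hairpin's table with DESeq2 1.28. A further methods paragraph names other tools, but the labels name those above and the deposited tables hold columns named as in DESeq2 output. The deposited signal of each library is its count divided by a size factor, called normalized count here. The deposited tables also hold the authors' log2 fold changes, their standard errors and Wald statistics (a score) and their p-values, none of which was used.

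Genes with a mean of at least 10 over the 6 libraries were tested with limma 3.58.1 (R 4.3.3) with an intensity trend on log2(normalized count + 1), since normalized values are not counts, and a gene was called at a Benjamini-Hochberg adjusted p below 0.05. The pseudocount understates changes of low genes. Whole reads were recovered from the size factor steps (tolerance 0.01) and used for depth, for lower bounds (floor of 3 reads) and for the comparison of hairpins with edgeR 4.0.16, in which NS shRNA reads were the same in both tables. Spreadsheet dates had replaced 28 symbols, which were restored from the other table. The code of the tests was run on simulated counts in which few genes changed and no library stood apart. That run does not measure the error of the calls in these data.

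Named genes were ASAH1; the 15 with the largest log2 fold change in each direction among called genes whose mean reached 100 and whose groups do not overlap; the 10 in each direction whose read share moved most; the 5 with the largest lower bound in each direction; and, in each gene list, members with the largest called changes or whose role is described. The genes and lists were chosen with earlier results of these data known. Lists were described by counts and medians, with no set test, and some genes and 1 list are not reported here. Alternatives were other pseudocounts (0.1 and 5), no filter, a mean of at least 50, no trend, upper quartile rescaling, edgeR, DESeq2 1.42.0, a replicate block and leaving out each library. Promoters and MIR30A came from RefSeq tables (GRCh38.p14), and gene positions from GENCODE on hg38.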

Additional observations from a re-analysis of the deposited data

Results flagged for a closer look

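In 19 of the 217 named genes, the hairpins moved the transcript in opposite directions from the same NS shRNA libraries, each call and the difference (shRNA #2 minus shRNA #1) passing edgeR's test adjusted over all genes. One was among the 30 genes named by size, 3 among the 20 named by read share and 15 among the 167 named from the lists. The genes were chosen on their shRNA #1 values, which the difference uses again, and 63.3% of all genes tested differed between the hairpins.

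ABCG1, the cholesterol exporter named by size, was lower with shRNA #1 (-3.26 on the log2 scale) and higher with shRNA #2 (0.62), a difference of 3.88 (adjusted p = 5.37e-11 from edgeR). Of the genes named by read share, PLAU was higher with shRNA #1 (1.34) and lower with shRNA #2 (-1.70), a difference of -3.03 (adjusted p = 1.67e-12 from edgeR). The chaperone gene HSPA8 had -1.13 and 0.42, a difference of 1.54, and the glycolytic gene ENO1 had -0.53 and 0.42, a difference of 0.96.

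Among list genes, those higher with shRNA #1 and lower with shRNA #2 were the serine synthesis gene PHGDH (1.58 and -1.20, a difference of -2.77), the interferon-stimulated RSAD2 (1.01 and -1.37, -2.38) and OASL (0.88 and -1.14, -2.01), the desmosome gene DSP (1.01 and -1.19, -2.20), the chemokine CXCL2 (1.49 and -0.20, -1.69) and the histones HIST1H1C (1.21 and -1.09, -2.30) and HIST1H2BK (0.44 and -0.99, -1.43). Those lower with shRNA #1 and higher with shRNA #2 were AKR1C1 (-2.13 and 0.68, a difference of 2.82), IER5 (-0.35 and 1.37, 1.71), S100A4 (-1.36 and 0.33, 1.69), the glutamate transporter SLC1A3 (-0.87 and 0.49, 1.35) and the receptor LIFR (-0.36 and 0.85, 1.21). The chaperone HSP90B1 (-0.38 and 0.75, 1.13), the sterol enzyme MSMO1 (-0.88 and 0.17, 1.04) and the ceramide kinase CERK (-0.81 and 0.19, 1.00) moved in the same sense. Clustered histone genes had 62.1 to 70.6 reads per 1000000 reads on genes with shRNA #2 and 126 to 141 with NS shRNA. In replicates 1, 2 and 3 of shRNA #1 they had 479.9, 211 and 216. The 10 RNAs without a poly(A) tail had 70.8 to 99.3 with shRNA #2 and 227 to 510.3 with NS shRNA. With shRNA #1 these RNAs had 3434, 248 and 178. The part of this library difference in the opposite calls of HIST1H1C and HIST1H2BK was not tested. Why these 19 differ was not tested.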

How the results depend on the processing

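The numbers of genes called moved little between settings, save that of at least 2-fold higher genes when the filter on the mean changed. Without each library in turn, 4100 to 4737 genes were higher and 4291 to 4754 lower. At least 2-fold higher genes numbered 588 of 12393 tested with a mean of at least 50, against 968 of 14341, and 1414 of 20684 with no filter. Their number thus depends on how many low genes are let in. Medians over all genes moved by less than 0.1 on the log2 scale in each setting, but each setting uses normalized libraries, which holds them near 0. Deviations of NS shRNA and shRNA #1 libraries with the same replicate number correlated at -0.19, -0.13 and -0.27 across genes, which are not independent replicates. Those with different numbers correlated at -0.068 to 0.27. Deviations sum to 0 within a group of 3, so these values cannot exclude a pairing by replicate number. With the replicate block, 4120 genes were higher and 4117 lower, 961 and 753 of them by at least 2-fold, and the log2 fold change of ASAH1 was -1.76. The RN7SK log2 fold change was -1.09 without shRNA #1 replicate 1 and up to 1.62 without another library. The RMRP log2 fold change was -1.45 without shRNA #1 replicate 1, -0.0091 without NS shRNA replicate 1 and up to 1.62 without another library. These 2 were the only ones of 214 genes named with a value or position to change direction in any setting, and PECAM1 alone lost its call in any, without NS shRNA replicate 1 or shRNA #1 replicate 3. Leaving out shRNA #1 replicate 1 and the histone calls were added after seeing the data: 6, 9 and 17 histone genes were called higher without shRNA #1 replicates 1, 2 and 3, and the number of lists with a median above 0 was 22 with and without replicate 1, as it was by edgeR, DESeq2 and upper quartile rescaling. Genes at 3 reads or fewer in 1 group numbered 84, and 83 without shRNA #1 replicate 1, another alternative chosen after seeing the data. Depth limits the genes with a mean below 10, which were not tested.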
